A study of Macaca mulatta with 15 samples.

Results

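Type I interferon-stimulated genes outside the IFIT family were described in T cells of 2 rhesus macaques before and after treatment with a cyclodextrin. The genes were chosen by name: a row of the count table belonged to the group when its gene symbol was one of 43 listed symbols. Of these, 40 had a row under their symbol, among 34884 genes in the table, and all 40 passed the filter on low counts with 14814 genes in all. USP18 was matched by its gene ID alone and is given apart from the 40, and IFIH1 and LY6E were not analysed here.

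Type I interferons are secreted proteins that bind a receptor made of IFNAR1 and IFNAR2. The receptor's kinases JAK1 and TYK2 phosphorylate transcription factors such as STAT2, which joins IRF9 to switch on a broad set of antiviral genes in nearly every cell type, T cells included. The products act at different steps of virus growth: MX proteins are GTPases that trap viral components, OAS enzymes sense double-stranded RNA and make the 2-5A messenger, ISG15 is a ubiquitin-like tag, and EIF2AK2 halts translation.

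The animals, RhDBCb and RhM22, were healthy, and each gave 1 blood draw before treatment and 1 after. The before libraries come from these animals with no treatment. Treatment was 2-hydroxypropyl-beta-cyclodextrin (the product Kleptose), a sugar ring that binds cholesterol, given under the skin as a 15% (w/w) solution at 1 ml per kg per day for up to 120 days. CD4 naive, CD4 memory, CD8 naive and CD8 memory T cells gave 15 libraries of polyadenylated RNA, 8 before and 7 after. An after-treatment library of CD8 naive cells from RhDBCb was not analysed here, which leaves 7 before-and-after pairs, 3 in RhDBCb and 4 in RhM22. The labels used here do not describe how the subsets were sorted or gated.

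Total counts ranged from 44414954 to 71787193 per library. CD4 was at 207 to 549 CPM (the count scaled to library size) in CD4 libraries and at most 1.68 in CD8 libraries, while CD8A was at 665 to 861 CPM in CD8 libraries and at most 3.93 in CD4 libraries. S100A4, a memory marker, separated CD4 naive (18.6 to 25.8 CPM) from CD4 memory libraries (312 to 502 CPM), and also CD8 naive (31.9 to 105 CPM) from CD8 memory libraries (327 to 2210 CPM). Genes detected numbered 13525 to 14750 in the 4 before libraries of RhDBCb and 14410 to 15445 in the 11 others, with an overlap. The summed level of 11 platelet markers in those 4 libraries was 4.58 to 10.5 CPM, with GP9 at 0, against 16 to 39.5 CPM in RhDBCb after treatment, 24.8 to 69.6 CPM in RhM22 before and 34.7 to 115 CPM in RhM22 after. A list of 10 monocyte and dendritic cell markers summed to 2.45 to 12.1, 7.88 to 43.5, 8.29 to 51.1 and 18.1 to 47.6 CPM in the same order. The 5 plasmacytoid dendritic cell markers in the file, which include GZMB, a gene that cytotoxic T cells also express, summed to 26.2 to 172, 9.19 to 309, 31.1 to 610 and 11.9 to 962 CPM. Of these CLEC4C, a defining marker, was at 0 in every draw but that of RhM22 after treatment, and SPIB was at 0 in RhDBCb after treatment. The draw lowest in platelet markers was also the lowest for most of the 40 genes, as given further on. In RhM22 the platelet sums rose after treatment in CD4 naive (69.6 to 115 CPM), CD8 naive (58.6 to 70.9) and CD8 memory cells (24.8 to 45.7). They fell in CD4 memory cells (40.6 to 34.7 CPM), while most of the 40 genes had lower values after treatment in that animal. The part of the marker levels in the results on draws was not tested. In bulk samples, fewer cells of a type and less RNA per cell cannot be told apart.

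Levels of single genes are given as the deposited FPKM, which scales fragments by a gene length and by library size. BST2, a membrane protein that tethers budding virions, had the highest mean FPKM of the 40 genes, at 53.9 with a range of 25.6 to 133 over the 15 libraries. IRF9, the DNA-binding partner of STAT2, followed with a mean of 25.5 FPKM, then the restriction factor TRIM22 with 16.8, the exonuclease ISG20 with 14.5 and the small membrane protein IFI6 with 9.97. At the low end of mean FPKM stood IFI44 with 0.17, the helicase DDX60 with 0.136 and IFI44L with 0.005. This order depends on the length used as well as on the RNA level. DDX60 had a mean of 19.4 CPM, while RTP4 had 6.95 CPM but 2.47 FPKM. For genes such as DDX60, CPM and FPKM together imply a length far above that of a spliced transcript. The FPKM order is therefore not a ranking of RNA levels. The heat map of all 40 genes shows how each varied around its own mean.

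**Figure D1:**
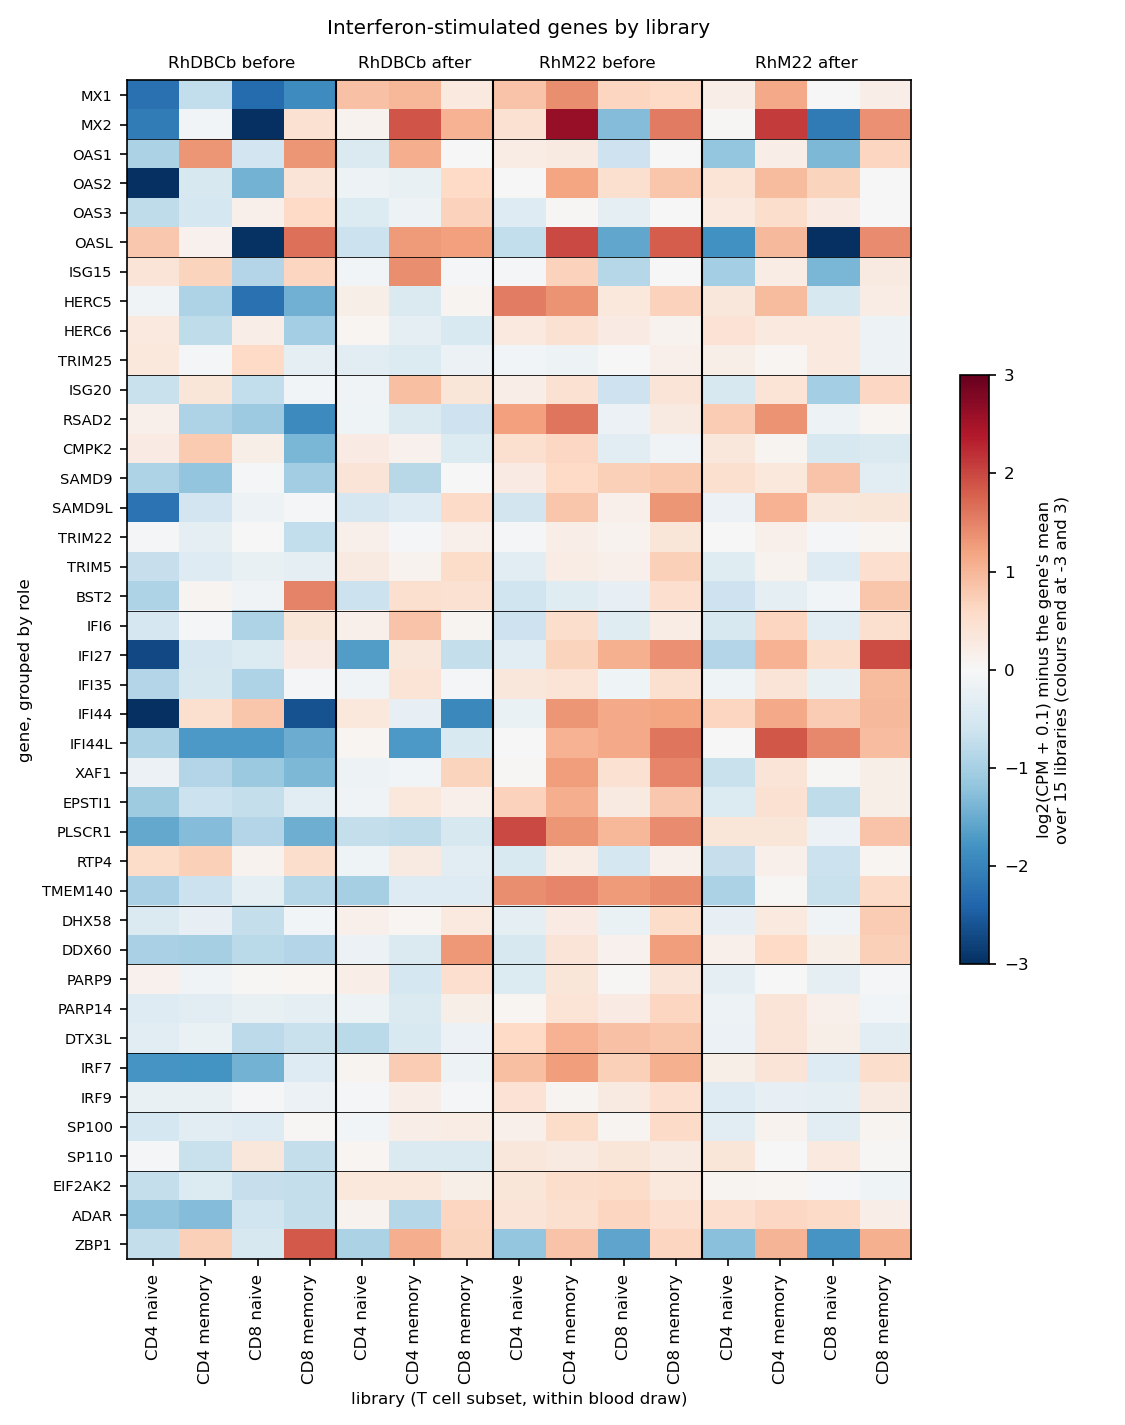
Heat map of the 40 genes (vertical axis, grouped by role) in the 15 libraries (horizontal axis, ordered by draw), as log2(CPM + 0.1) minus the gene's mean over all libraries. Draws were ranked by the mean over the 3 subsets each draw held. RhDBCb before treatment, at the left, was the lowest draw for 31 of the 40 genes, as for 39.6% of all genes. RhM22 before treatment was the highest for 25, as for 26.2% of all genes.

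The first question of the design was whether the genes differed after treatment, over all subsets and both animals. None of the 40 genes was called at an adjusted p under 0.05 by edgeR's quasi-likelihood test, against 0.00675% of all genes tested, and 5 had an unadjusted p under 0.05. DESeq2 and limma-voom also called 0 of the 40. The median log2 fold change, after minus before, was 0.03 over the 40 genes and 0.01 over all genes, and 22 of the 40 were above 0. Among the MX GTPases, MX1 had a log2 fold change of 0.83 with an SE of 0.43 and MX2 of 0.55 with an SE of 0.46, both short of the threshold.

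The 4 subsets taken singly gave the same count. In edgeR, 0 of the 40 genes were called in any of the subsets, and the share called among all genes was 0% in each. The genes with an unadjusted p under 0.05 numbered 2 in CD4 naive, 0 in CD4 memory, 1 in CD8 naive and 0 in CD8 memory cells, and DESeq2 and limma-voom called 0 in each as well. Median log2 fold changes of the 40 genes were 0.07 in CD4 naive, 0.11 in CD4 memory, -0.26 in CD8 naive and 0.02 in CD8 memory cells, where those of all genes were 0.01, 0.01, -0.02 and 0.01. The CD8 naive value leans on RhM22, the only animal with an after library there.

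Within each animal most log2 fold changes of the group lay on one side of 0, and the sides were opposite. In RhDBCb 32 of the 40 log2 fold changes were above 0, with a median of 0.40 against 0.00 over all genes. In RhM22 only 9 of 40 were above 0, with a median of -0.23 against 0.01. The pairs of RhDBCb were alike: the median over the 40 genes was 0.49 in CD4 naive cells, 0.43 in CD4 memory cells and 0.47 in CD8 memory cells, with 30, 31 and 32 genes above 0. The medians of the RhM22 pairs were -0.22 in CD4 naive, -0.21 in CD4 memory, -0.24 in CD8 naive and -0.32 in CD8 memory cells, with 15, 11, 12 and 10 genes above 0.

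Markers of memory T cells rose in the RhDBCb pairs, and in RhM22 they were nearly level in the CD4 pairs and fell in the CD8 pairs. The summed level of 5 memory markers went from 2330 to 3930 CPM in the CD4 naive, 5380 to 7110 in the CD4 memory and 7030 to 7430 in the CD8 memory pair of RhDBCb. In RhM22 it went from 4340 to 4290, 6800 to 6790, 4660 to 4090 and 8000 to 6680 CPM in subset order. The summed level of 4 naive markers went from 20400 to 12200, 10900 to 9220 and 3800 to 4990 CPM in the same pairs of RhDBCb. In RhM22 it went from 14100 to 8130, 7910 to 7240, 10900 to 8780 and 6120 to 6850 CPM in subset order. The naive sum thus fell in CD4 naive cells and rose in CD8 memory cells of both animals. The part of the memory and naive markers in the changes of the group was not tested.

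Counted gene by gene, 11 of the 40 were higher after treatment in all 3 RhDBCb pairs and lower in all 4 RhM22 pairs, as were 3.41% of all genes. They were MX1, MX2, IRF7, IRF9, EIF2AK2, HERC5, EPSTI1, PLSCR1, SP100, TRIM5 and XAF1. No gene of the 40 had the opposite pattern, which 2.71% of all genes had. DHX58 and OAS3 were higher after treatment in all 7 pairs (2.03% of all genes), and RTP4 was lower in all 7 (1.94% of all genes).

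The test of the difference between the animals, the change in RhM22 minus that in RhDBCb, called 8 of the 40 genes as lower and 0 as higher, where 2.77% and 1.81% of all genes were called. Of the 40 log2 differences 5 were above 0, and the median was -0.66 against -0.01 over all genes. The 8 genes are plotted by draw, and their values follow by role, together with the other 3 genes called in either animal. With 1 draw per animal and time, the p-values measure the spread between libraries, and a draw's own features, such as the day of processing, cannot be told apart from treatment or animal.

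**Figure D2:**
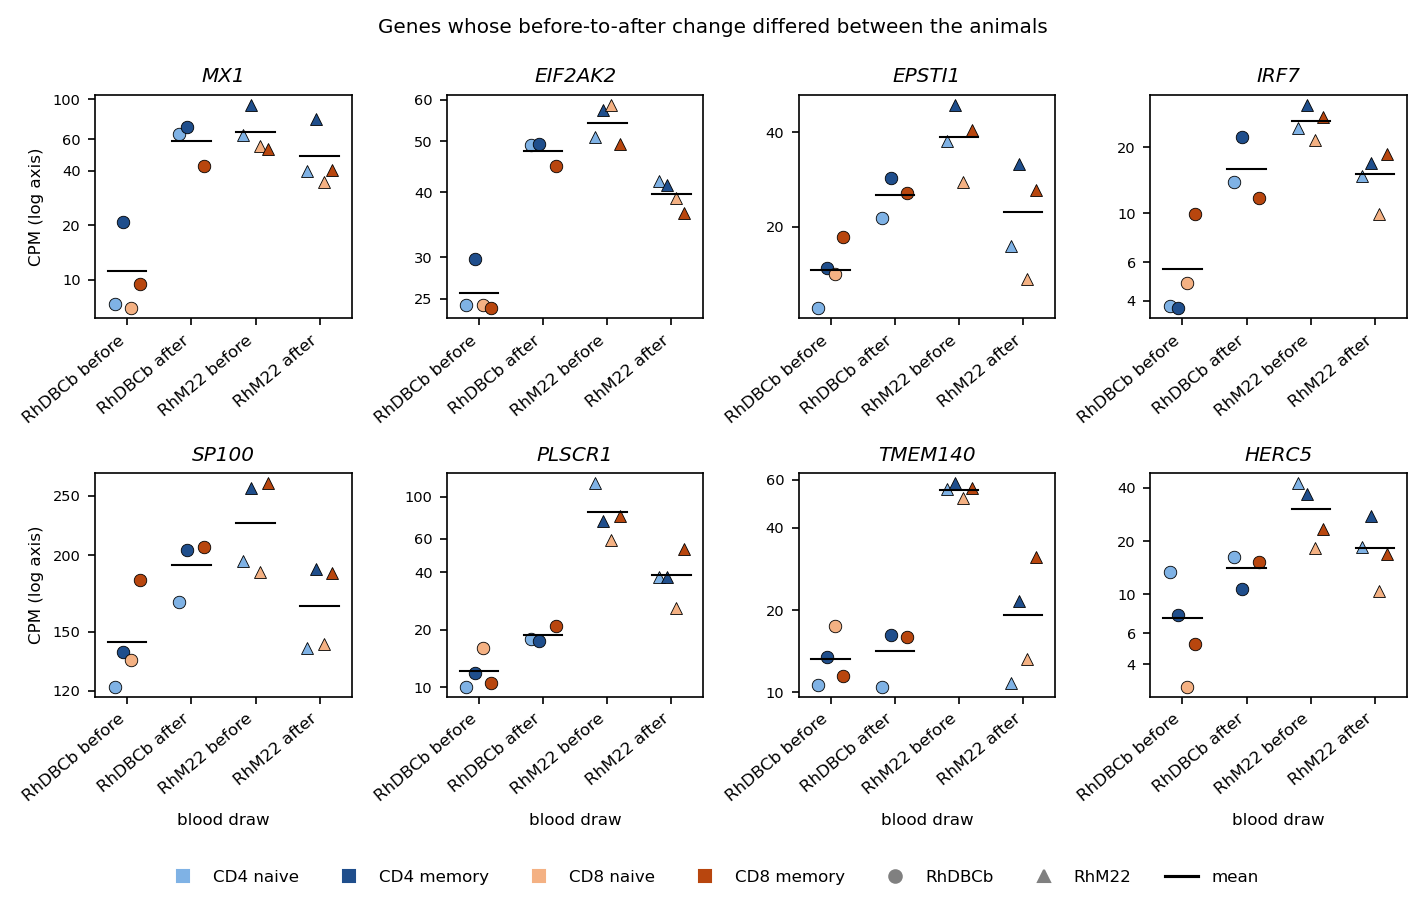
CPM on a log axis (vertical) of the 8 genes whose change differed between the animals, by blood draw (horizontal). Points are libraries coloured by subset, circles are RhDBCb and triangles RhM22, and bars are means of 3 or 4 libraries. MX1 and EIF2AK2 are lowest in all 4 RhDBCb libraries before treatment, while TMEM140 and PLSCR1 are highest in the 4 RhM22 libraries before treatment.

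MX1, the GTPase that blocks influenza and other viruses, had the largest change that passed the test. In RhDBCb its level before treatment was 7.36 CPM in CD4 naive, 20.8 in CD4 memory, 6.93 in CD8 naive and 9.40 in CD8 memory cells, and after treatment it was 63.9 in CD4 naive cells, 70.1 in CD4 memory cells and 42.8 in CD8 memory cells. In RhM22 the 4 levels in subset order were 62.9, 92.6, 54.7 and 52.9 CPM before and 39.9, 77.6, 34.6 and 40.4 CPM after treatment. All 4 RhDBCb libraries before treatment lay below the other 11, and the RhM22 groups overlapped. MX1 rose in RhDBCb by 2.40 on the log2 scale (SE 0.20, adjusted p = 8.46e-05), which is 5.26-fold, and the change in RhM22 was -0.49. The difference between the animals was -2.89 (SE 0.27, adjusted p = 0.000289).

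MX2, its neighbour on the chromosome and a factor against retroviruses, rose in RhDBCb and differed widely between subsets. The RhDBCb levels in CD4 naive, CD4 memory and CD8 memory cells were 2.17, 9.05 and 13.3 CPM before and 10.4, 35.7 and 19.8 CPM after treatment, and the CD8 naive library before treatment held 4 counts, or 0.053 CPM. In RhM22 the levels in subset order were 13.2, 59.4, 3.86 and 28.5 CPM before and 9.79, 41.5, 2.15 and 24.9 CPM after. Every pair of RhDBCb went up and every pair of RhM22 down, although the draws overlapped across subsets. The log2 fold change in RhDBCb was 1.81 (SE 0.47, adjusted p = 0.0288), and 2.45 without the RhDBCb CD8 memory library before treatment. The difference between the animals, -2.34, missed the threshold with an adjusted p of 0.0523 in edgeR.

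Among the proteins that read double-stranded RNA, EIF2AK2 (PKR), which phosphorylates a translation factor, varied little between subsets and much between draws. In RhDBCb its levels in subset order were 24.3, 29.8, 24.4 and 24.0 CPM before, and 49.2, 49.5 and 44.8 CPM after treatment in CD4 naive, CD4 memory and CD8 memory cells. In RhM22 they were 51.0, 57.4, 58.6 and 49.5 CPM before and 41.9, 41.3, 39.0 and 36.5 CPM after. Neither animal's groups overlapped. EIF2AK2 rose in RhDBCb by 0.91 (SE 0.13, adjusted p = 0.00149), the change in RhM22 was -0.45, and the difference was -1.35 (SE 0.17, adjusted p = 0.00146).

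ADAR, which edits adenosine in double-stranded RNA, rose in RhDBCb by 1.04 (SE 0.24, adjusted p = 0.019). Its levels there were 103, 94.7, 154 and 142 CPM before treatment in subset order and 251, 129 and 364 CPM after, so that the CD4 memory library after treatment lay within the range of the libraries before. In RhM22 ADAR stayed between 306 and 364 CPM before and 267 and 356 CPM after treatment, with a change of -0.01. The span of the gene overlaps that of CHRNB2 in a RefSeq annotation. Reads from a stretch shared by exons of both genes cannot be told apart by strand in this unstranded assay. Whether exons overlap was not examined, so an effect on the count is not known. ZBP1, a sensor of Z-form nucleic acid, went the other way from most of the group, with log2 changes of -0.52 in RhDBCb and 0.09 in RhM22, neither called.

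IRF7, the transcription factor that amplifies interferon production, rose in RhDBCb. Its levels in subset order were 3.78, 3.70, 4.81 and 9.93 CPM before and, without CD8 naive cells, 13.9, 22.2 and 11.8 CPM after treatment. RhM22 had 24.6, 31.1, 21.6 and 27.6 CPM before and 14.8, 17, 9.93 and 18.7 CPM after, so the groups of neither animal overlapped. The log2 fold change was 1.46 in RhDBCb (SE 0.32, adjusted p = 0.0126) and -0.82 in RhM22, and the difference was -2.28 (SE 0.42, adjusted p = 0.0118). IRF9 had smaller changes of 0.19 in RhDBCb and -0.48 in RhM22, not called.

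DDX60, a helicase that assists RNA sensing, was within 8.52 to 9.74 CPM in the 4 RhDBCb libraries before treatment. After treatment it was at 15.1 CPM in CD4 naive cells, 12.5 in CD4 memory cells and 42.1 in CD8 memory cells, with no overlap, and the log2 fold change was 1.13 (SE 0.30, adjusted p = 0.0313). RhM22 ranged from 12.2 to 41 CPM before and from 19.0 to 27.8 CPM after treatment, and its change was 0.08. The other helicase sensor, DHX58 (LGP2), had a change of 0.44 in RhDBCb and 0.10 in RhM22, neither called, although all 7 pairs went up.

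In the ISG15 system, HERC5, the ligase that attaches ISG15 to new proteins, was called for the difference between the animals and in neither animal singly. RhDBCb libraries had 13.4, 7.60, 2.99 and 5.24 CPM before treatment in subset order, and 16.3, 10.7 and 15.3 CPM after. RhM22 libraries had 42.4, 36.9, 18.2 and 23.3 CPM before and 18.4, 27.9, 10.4 and 16.8 CPM after. Levels before and after overlapped in both animals, and the CD8 naive libraries were the lowest of each draw that had one. The changes were 0.87 in RhDBCb and -0.70 in RhM22, with a difference of -1.56 (SE 0.37, adjusted p = 0.0321). ISG15 itself, HERC6 and TRIM25, a ligase that activates RNA sensing, had differences of -0.33, -0.20 and 0.49, none called.

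SP100, a component of nuclear bodies that silences viral genomes, had the smallest of the 8 differences. Its levels in RhDBCb were 122, 139, 135 and 182 CPM before treatment in subset order and 168, 204 and 206 CPM after. In RhM22 they were 196, 258, 188 and 262 CPM before and 141, 190, 143 and 187 CPM after. The groups overlapped in both animals, with memory cells above naive cells of the same lineage in every draw that held both. The changes were 0.37 and -0.45, not called, and the difference was -0.81 (SE 0.16, adjusted p = 0.0137).

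EPSTI1, a gene known from epithelial and stromal interaction, rose in RhDBCb and was lower after treatment in every RhM22 pair. RhDBCb libraries had 11.0, 14.8, 14.1 and 18.5 CPM before treatment in subset order and 21.3, 28.5 and 25.7 CPM after, with no overlap. RhM22 libraries had 37.5, 48.8, 27.7 and 40.7 CPM before and 17.4, 31.8, 13.6 and 26.2 CPM after, with an overlap. The log2 fold change was 0.66 in RhDBCb (SE 0.20, adjusted p = 0.0489) and -0.83 in RhM22, and the difference was -1.49 (SE 0.26, adjusted p = 0.00996).

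PLSCR1, a phospholipid scramblase with antiviral activity, and TMEM140, a membrane protein of little-known function, stood out by their level in RhM22 before treatment. PLSCR1 was at 117, 74.5, 59.4 and 79.4 CPM there in subset order, and at 37.9, 38.0, 26.1 and 53.1 CPM after treatment. RhDBCb had 10.1, 11.9, 16.1 and 10.6 CPM before and 18.0, 17.5 and 21.1 CPM after treatment. No draw of PLSCR1 overlapped another of the same animal. Its changes were 0.56 in RhDBCb and -1.09 in RhM22, and the difference was -1.65 (SE 0.36, adjusted p = 0.0206).

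TMEM140 was at 55.6, 58.2, 51.4 and 55.9 CPM in RhM22 before treatment in subset order and at 10.8, 21.6, 13.2 and 31.2 CPM after. In RhDBCb it was at 10.6, 13.5, 17.5 and 11.5 CPM before and at 10.5, 16.2 and 16.0 CPM after treatment. The RhM22 groups did not overlap, and the RhDBCb groups did. TMEM140 was the 1 gene of the 40 called in RhM22, where it fell by 1.61 on the log2 scale (SE 0.25, adjusted p = 0.0387), and its difference between the animals was -1.67 (SE 0.37, adjusted p = 0.0225). TMEM140 overlaps CYREN.

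Altogether 7 of the 40 genes were called higher after treatment in RhDBCb and 0 lower, against 5.49% and 4.62% of all genes. In RhM22 0 were called higher and 1 lower, against 0% and 0.0608% of all genes, and 12 had an unadjusted p under 0.05. MX1, EIF2AK2 and EPSTI1 kept their difference between the animals in each of 15 fits that left out 1 library. IRF7 and SP100 lost theirs without the RhDBCb CD4 naive library after treatment (adjusted p = 0.051 and 0.0685) or the RhM22 CD8 naive library before treatment (0.0561 and 0.0543). PLSCR1 and TMEM140 kept theirs in 11 of 15 such fits, and both lost it without those same libraries or the RhM22 CD4 naive library after treatment, with largest adjusted p-values of 0.065 and 0.0728. The fourth loss was without the RhDBCb CD4 naive library before treatment for PLSCR1 (0.0508) and without its CD4 memory library before treatment for TMEM140 (0.0501). Without the CD8 naive libraries HERC5, IRF7, SP100 and TMEM140 missed the threshold (adjusted p = 0.131, 0.0665, 0.0655 and 0.0612). HERC5 kept its difference in 6 of 15 fits, with a largest adjusted p of 0.124 without the RhM22 CD8 naive library before treatment. The count of 8 genes became 3 without the RhDBCb CD4 naive library after treatment, 3 without the RhM22 CD8 naive library before treatment and 5 without the RhM22 CD4 naive library after treatment.

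For the change in RhDBCb, MX1 and EIF2AK2 kept the call in all 15 fits, IRF7 in 13, ADAR and DDX60 in 11, MX2 in 10 and EPSTI1 in 4. Without the RhDBCb CD4 naive library after treatment the adjusted p was 0.076 for IRF7, 0.108 for ADAR, 0.128 for DDX60, 0.142 for MX2 and 0.205 for EPSTI1. The count of 7 genes then became 2, and it became 3 without the RhDBCb CD4 memory library before treatment. TMEM140 in RhM22 kept its call in 3 of 15 fits, with a largest adjusted p of 0.322 without the RhM22 CD8 naive library after treatment. A fit on the 7 libraries of RhDBCb alone called 0 of the 40, with 13 at an unadjusted p under 0.05 and MX1 at an adjusted p of 0.0538. With limma on log2(FPKM + 0.1) the RhDBCb changes were 1.00 for MX2, 0.58 for DDX60 (adjusted p = 0.105) and 0.38 for EPSTI1 (adjusted p = 0.084), and EPSTI1 was at 0.0511 in edgeR with RLE factors.

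The animals were then compared with each other at each time. Before treatment RhM22 was higher than RhDBCb for 27 of the 40 genes and lower for 2, in edgeR, where 19.4% of all genes were higher and 18.3% lower. The median log2 difference was 0.76 against 0.07 over all genes. After treatment 1 gene was higher and 0 lower, against 3.29% and 3.15% of all genes, and the median was 0.14 against 0.04. These comparisons share their libraries with the changes within each animal, so they are another view of the same values.

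**Figure D3:**
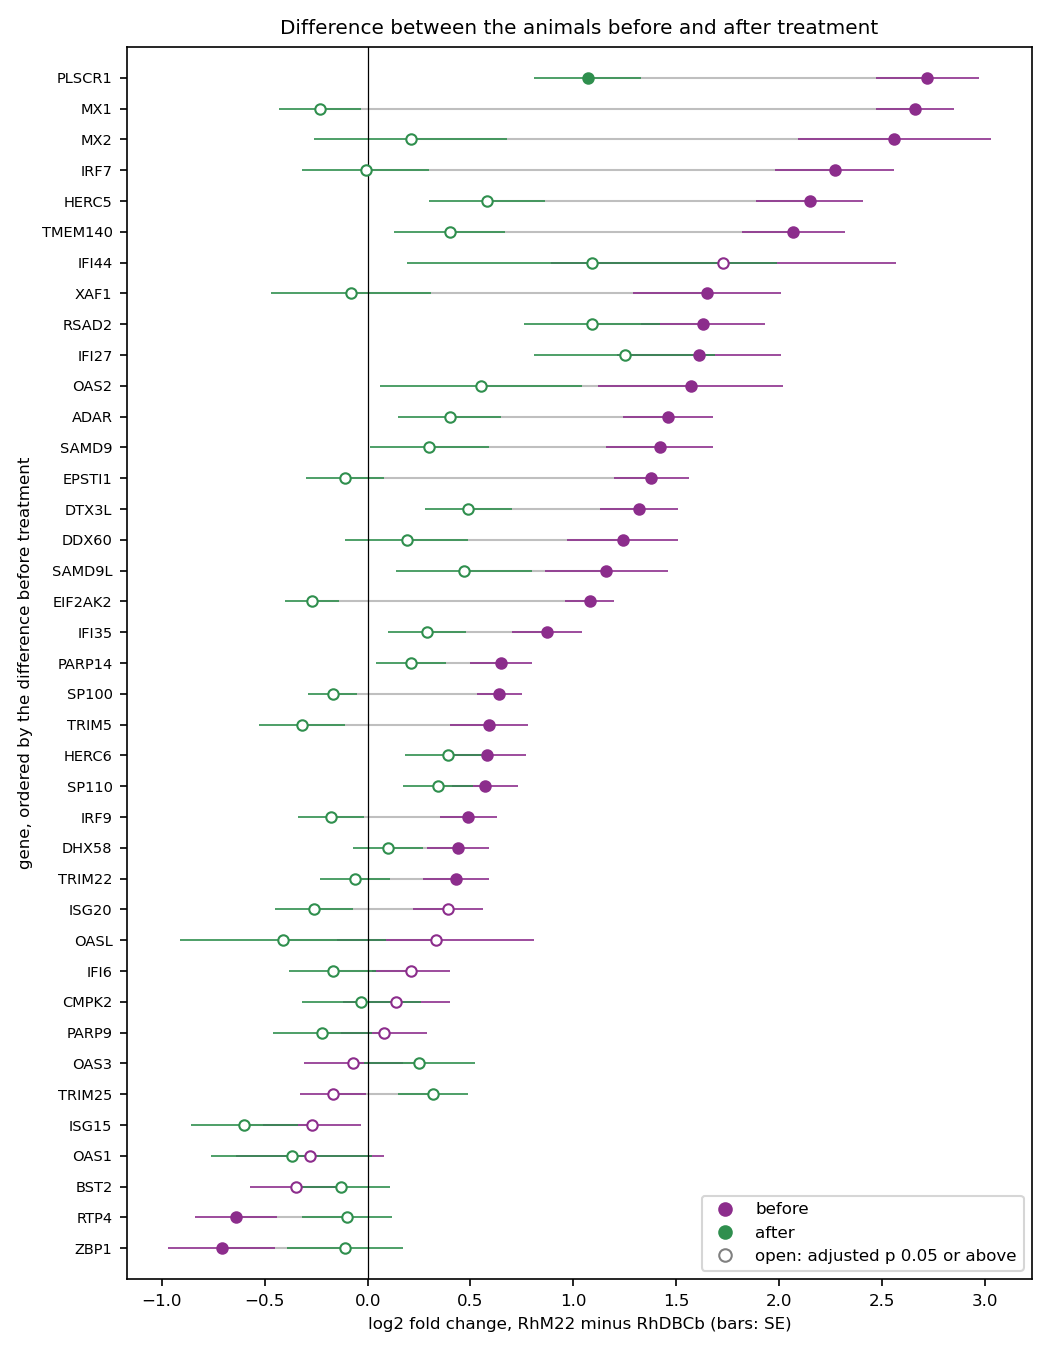
Log2 fold change of RhM22 over RhDBCb (horizontal axis, bars are SE) before and after treatment for 39 of the 40 genes (vertical axis); IFI44L is left out because it was near 0 counts in RhDBCb. Before treatment 33 of the 40 values lie above 0, and after treatment 21.

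Both MX genes, both helicase sensors, both nuclear body proteins and both transcription factors were higher in RhM22 before treatment. MX1 had a difference of 2.66 (SE 0.19, adjusted p = 1e-06), MX2 2.56 (SE 0.47, adjusted p = 0.000851), IRF7 2.27 (SE 0.29, adjusted p = 7.75e-05) and PLSCR1 2.72 (SE 0.25, adjusted p = 8.39e-06). PLSCR1 was also the gene still called after treatment, at 1.07 (SE 0.26, adjusted p = 0.0325), while MX1 then had -0.23, MX2 0.21 and IRF7 -0.01. The PLSCR1 call after treatment was lost without any 1 of 5 after libraries, CD4 naive or CD4 memory of either animal or CD8 memory of RhM22, with adjusted p-values of 0.0521 to 0.145.

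Of the restriction factors 5 of 8 were higher in RhM22 before treatment. RSAD2 (viperin), which makes a chain-terminating nucleotide, led with 1.63 (SE 0.30), followed by SAMD9 with 1.42, SAMD9L with 1.16, TRIM5 with 0.59 and TRIM22 with 0.43. BST2, ISG20 and CMPK2 had differences of -0.35, 0.39 and 0.14, not called. RSAD2 overlaps CMPK2, its neighbour, which makes the substrate that RSAD2 uses, and the pair differed in that only RSAD2 passed the test before treatment; the difference between the pair was not tested.

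Of the 2-5A synthetases 1 of 4 was called. OAS2 was higher in RhM22 by 1.57 (SE 0.45, adjusted p = 0.0141), while OAS1, OAS3 and OASL had -0.28, -0.07 and 0.33. In the ISG15 system HERC5 (2.15) and HERC6 (0.58) were higher in RhM22, and ISG15 (-0.27) and TRIM25 (-0.17) were not called. Of the ADP-ribosylation genes DTX3L (1.32) and PARP14 (0.65) were called and PARP9 (0.08), which overlaps DTX3L and whose product binds it, was not. DTX3L is one of 4 genes, with PLSCR1, EIF2AK2 and TMEM140, for which all 4 RhM22 libraries before treatment lay above the other 11, as for 0.709% of all genes. For EIF2AK2 that margin is small, since the RhM22 CD8 memory library before treatment and the RhDBCb CD4 memory library after treatment both round to 49.5 CPM.

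The remaining induced genes followed. TMEM140 (2.07), XAF1 (1.65), IFI27 (1.61), EPSTI1 (1.38) and IFI35 (0.87) were higher in RhM22 before treatment with PLSCR1, and so was IFI44L by the test. IFI44L had 3, 0, 0 and 1 counts in the RhDBCb libraries before treatment and 11, 38, 43 and 55 counts in those of RhM22, so no fold is given. IFI44, at 1.73, was not called. RTP4, a chaperone of receptor transport, was lower in RhM22, with a log2 difference of -0.64 (SE 0.20, adjusted p = 0.0216). ZBP1 was the other gene lower there, at -0.71 (SE 0.26, adjusted p = 0.045). ZBP1 missed the threshold there with no low-count filter (adjusted p = 0.0569), limma-voom (0.164), limma on log2(FPKM + 0.1) (0.0875) and without the CD8 naive (0.158) or CD8 memory libraries (0.205), and kept the call in 4 of 15 fits leaving out 1 library.

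Ordering the 4 draws by the mean over the 3 subsets each draw held, RhDBCb before treatment was the lowest for 31 of the 40 genes, as for 39.6% of all genes. RhM22 before treatment was the highest for 25 of the 40, as for 26.2% of all genes. For 5 genes, MX1, IRF7, DDX60, PLSCR1 and EIF2AK2, all 4 RhDBCb libraries before treatment lay below the 11 others, as for 3.19% of all genes. For IRF7 that margin is small, since the RhDBCb CD8 memory library before treatment and the RhM22 CD8 naive library after treatment both round to 9.93 CPM. The draw lowest for these genes was also the one lowest in platelet markers, as given above.

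Other genes of the interferon pathway were counted from a list of 36, of which 34 were tested. IRF8 and STING1, the adaptor of DNA sensing, were called for the difference between the animals, at -1.60 and -0.93. Of all genes, 2.77% were called lower for it and 1.81% higher. In RhDBCb, TYK2, IRF8, MAVS and SOCS3 rose and TBK1 and PIAS1 fell, where 5.49% and 4.62% of all genes were called. STAT2 had levels of 11.0 ± 3.41 CPM (SD, n = 4), 14.6 ± 4.69 (SD, n = 3), 26.9 ± 0.823 (SD, n = 4) and 20.2 ± 3.17 (SD, n = 4) in RhDBCb before and after and RhM22 before and after treatment. SOCS3, an inhibitor of cytokine signalling, was the 1 gene of the 34 higher in RhM22 after treatment, by 1.31. Of all genes 3.29% were called higher there. The SOCS3 means already lay apart before treatment, at 29.3 CPM in RhDBCb and 132 CPM in RhM22, and were 55.8 and 135 CPM after.

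Of the 4 IFIT genes, IFIT2 fell over all subsets by 1.36 on the log2 scale (SE 0.18, adjusted p = 0.0292, kept in 5 of 15 fits leaving out 1 library, and at 0.109 with the animal left out of the model), and in RhDBCb IFIT2 fell by 1.36 and IFIT5 fell by 0.83. IFIT3 fell in RhM22 by 1.37 (kept in 3 of 15 fits), and IFIT5 in RhDBCb kept its call in 1 of 15.

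The second question was how the genes differ between the subsets. Subset means were taken over the draws that held all 4 subsets. The highest was that of CD4 memory cells for 15 of the 40 genes and of CD8 memory cells for 17, as for 20.7% and 29.7% of all genes. CD4 naive and CD8 naive cells had the highest mean for 4 genes each, as for 24% and 25.6% of all genes. The lowest mean was in CD4 naive cells for 15 genes, CD8 naive for 15, CD8 memory for 8 and CD4 memory for 2. Of all genes, 21.8%, 26.5%, 27.6% and 24.1% had their lowest mean there, in the same order. Within draws, 13 genes were higher in memory than in naive cells in all 7 comparisons, as were 12.6% of all genes: BST2, ISG15, ISG20, IFI6, IFI27, IFI35, OAS1, MX2, ZBP1, RTP4, EPSTI1, SP100 and SAMD9L. SP110, the partner of SP100 in nuclear bodies, was lower in memory cells in all 7, as were 10.3% of all genes.

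By the test, 10 of the 40 genes were higher in CD4 memory than in CD4 naive cells and 0 lower, where 6.82% and 4.71% of all genes were called. In the CD8 lineage 11 were higher in memory cells and 0 lower, where 9.93% and 6.60% of all genes were called. The median log2 difference was 0.33 over the 40 genes and -0.02 over all genes in CD4 cells, and 0.42 and 0.03 in CD8 cells. Leaving out all libraries of the first RhDBCb draw, 10 genes were higher in memory cells of the CD4 lineage and 8 in those of the CD8 lineage, and the calls of OAS1 in both lineages (adjusted p = 0.129 and 0.106), SAMD9L in CD4 (0.0632) and BST2, IFI6, IFI35 and SP100 in CD8 cells (0.0875, 0.136, 0.062 and 0.0517) were lost. The counts were 5 in CD4 cells without the RhM22 CD4 naive library after treatment and 5 in CD8 cells without the RhM22 CD8 naive library after treatment. In a model without the draw, which pairs the subsets of 1 animal and time, 1 gene (ZBP1) was called in CD4 cells and 6 in CD8 cells. The draws numbered 4 and came from 2 animals. The p-values of the subset contrasts, here and below, therefore measure the spread between libraries, not between animals.

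ZBP1 had the smallest adjusted p in both lineages. It was at 3.82, 3.27, 2.81 and 2.63 CPM in the 4 CD4 naive libraries and at 10.5, 13.7, 11.7 and 13.0 CPM in the CD4 memory libraries of the same draws. CD8 naive libraries had 4.58, 2.05 and 1.80 CPM, and CD8 memory libraries 23.0, 10.2, 10.1 and 13.5 CPM. Memory and naive libraries did not overlap in either lineage. ZBP1 was higher in memory cells by 2.01 in CD4 (SE 0.27, adjusted p = 0.000325) and by 2.39 in CD8 cells (SE 0.30, adjusted p = 0.000174).

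**Figure D4:**
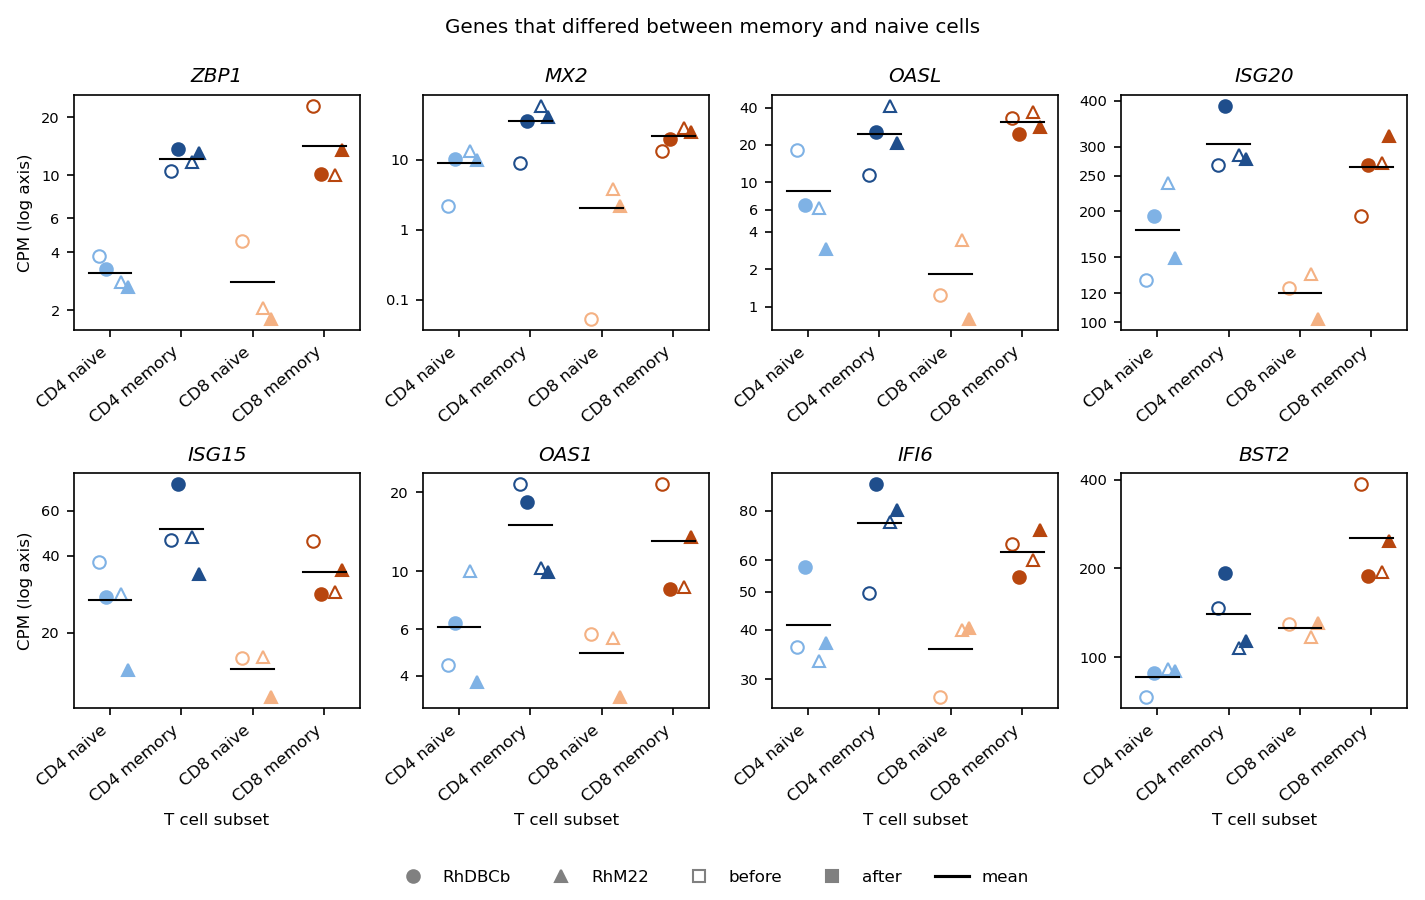
CPM on a log axis (vertical) of 8 genes called between memory and naive cells in at least 1 lineage, by T cell subset (horizontal). Circles are RhDBCb and triangles RhM22, open before and filled after treatment, and bars are means of 3 or 4 libraries. The means of MX2 and OASL are lowest in CD8 naive cells, where single libraries overlap those of CD4 naive cells, and ZBP1 is low in both kinds of naive cells.

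OASL, a 2-5A synthetase relative without enzyme activity that aids RNA sensing, had the largest step in CD8 cells. The CD4 naive libraries held 18.3, 6.63, 6.19 and 2.89 CPM and the CD4 memory libraries 11.4, 25.2, 41.4 and 20.6 CPM, with the RhDBCb pair before treatment going down. CD8 naive libraries held 1.25, 3.45 and 0.797 CPM and CD8 memory libraries 32.7, 24.6, 37.1 and 28.0 CPM, without overlap. The log2 difference was 1.61 in CD4 (SE 0.49, adjusted p = 0.0483) and 4.30 in CD8 cells (SE 0.60, adjusted p = 0.000339). Without the RhDBCb CD4 naive library before treatment the CD4 value was 2.33, and its call held in 5 of 15 fits that left out 1 library, against 15 of 15 for the CD8 call.

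MX2 was higher in memory cells of both lineages, by 2.01 in CD4 (SE 0.44, adjusted p = 0.0096) and 4.05 in CD8 cells (SE 0.56, adjusted p = 0.000323), with the libraries given above. The CD8 value was 2.04 with limma on log2(FPKM + 0.1) and 3.44 without the RhDBCb CD8 naive library, which held 4 counts. The memory step of OASL was larger in CD8 than in CD4 cells by 2.69 (SE 0.73) and that of MX2 by 2.04 (SE 0.67), but the adjusted p-values of this difference were 0.277 and 0.407 in edgeR. No gene of the 40 was called for it in edgeR, where 0.0675% of all genes were called higher and 0.0203% lower, and 5 had an unadjusted p under 0.05. DESeq2 called OASL and limma-voom called 0.

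OAS1 was higher in memory cells by 1.25 in CD4 (SE 0.36, adjusted p = 0.0381) and 1.44 in CD8 cells (SE 0.40, adjusted p = 0.0245). Its CD4 naive libraries held 4.41, 6.33, 10.0 and 3.79 CPM and the CD4 memory libraries 21.5, 18.3, 10.3 and 9.93 CPM, so that the RhM22 pair before treatment was almost level and the groups overlapped. The OAS1 calls held in 8 of 15 such fits in CD4 and 10 of 15 in CD8 cells. ISG15 was higher in memory cells by 0.94 in CD4 (SE 0.24, adjusted p = 0.0227) and 1.23 in CD8 cells (SE 0.27, adjusted p = 0.0066), held in 11 and 15 of 15 fits. CD8 naive libraries held 15.9, 16.1 and 11.2 CPM of ISG15 and CD8 memory libraries 45.8, 28.5, 29.0 and 35.4 CPM, without overlap.

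IFI27 was higher in CD4 memory than in CD4 naive cells by 1.90 (SE 0.40, adjusted p = 0.00813), from 0.233, 0.579, 1.63 and 1.08 CPM to 1.42, 2.64, 3.32 and 4.35 CPM. Its level was low, with 10 counts in the lowest library. The others called in CD4 cells were SAMD9L (1.08), IFI6 (0.85), ISG20 (0.79) and MX1 (0.78). In CD8 cells they were ISG20 (1.06), BST2 (0.96), IFI35 (0.80), IFI6 (0.77), DHX58 (0.70) and SP100 (0.40). Genes of 8 of the 10 roles were thus called in at least 1 lineage, and neither transcription factor and none of the ADP-ribosylation genes was.

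Between the lineages 4 of the 40 genes were called in naive cells and 3 in memory cells, where 3.37% and 8.24% of all genes were called. In naive cells 1 gene was higher in CD8 than in CD4 cells and 3 were lower, where 1.69% and 1.68% of all genes were called, with a median of -0.01 over the 40 genes. MX2 was lower in CD8 naive cells with a log2 value of -2.45 (SE 0.52, adjusted p = 0.0182), OASL with -2.35 (SE 0.57, adjusted p = 0.0359) and HERC5 with -1.40 (SE 0.29, adjusted p = 0.0136). IFI27 was higher, by 1.72 (SE 0.43, adjusted p = 0.0469), at 1.54, 4.41 and 3.03 CPM in CD8 naive libraries, and its call held in 2 of 15 fits. None of the 4 calls held without the RhM22 CD8 naive library after treatment, where the adjusted p-values were 0.0712, 0.172, 0.0614 and 0.0714, and leaving out the first RhDBCb draw OASL (0.0846), HERC5 (0.116) and IFI27 (0.174) were not called. The OASL value was -1.46 without the RhDBCb CD4 naive library before treatment.

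In memory cells 1 gene was higher in CD8 cells and 2 lower, where 4.63% and 3.61% of all genes were called. MX1 was lower in CD8 memory cells in all 4 draws, with a log2 value of -0.92 (SE 0.18, adjusted p = 0.00606), and kept this call in each fit that left out 1 library. CMPK2 had -0.94 (SE 0.27, adjusted p = 0.0449), from 16.6, 10.5, 14.8 and 10.2 CPM in CD4 memory to 3.65, 7.20, 8.92 and 7.09 CPM in CD8 memory libraries, without overlap, and held the call in 2 of 15 fits. BST2 was higher by 0.86 (SE 0.22, adjusted p = 0.0262), from 147, 193, 107 and 113 CPM to 387, 188, 195 and 247 CPM, with an overlap, and held the call in 9 of 15. Without the draw in the model none of the 3 was called, with adjusted p-values of 0.743 for MX1, 0.1 for CMPK2 and 0.0778 for BST2, and BST2 was at 0.0821 without the first RhDBCb draw.

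Pathway genes also differed between memory and naive cells. IFNAR2, a receptor chain, was higher in memory cells by 1.15 in CD4 and 1.44 in CD8 cells, and IFNAR1 by 0.93 and 0.77. CGAS, the DNA sensor that makes the messenger for STING1, was higher by 1.5 and 2.04, and TICAM1 by 0.96 and 1.68. Of the 34 pathway genes 4 were higher and 3 lower in CD4 memory cells, and 10 higher and 0 lower in CD8 memory cells, beside 6.82% and 4.71% of all genes in the CD4 and 9.93% and 6.6% in the CD8 lineage. STAT2 was not among those called.

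Several of the 40 genes lie close together, with at most 2 protein-coding genes between them. The RefSeq annotation of assembly T2T-MMU8v2.0 was used for this, for gene order and overlap alone. The close genes were MX1 with MX2, OAS1, OAS2 and OAS3, IFI44 with IFI44L, SAMD9 with SAMD9L, HERC5 with HERC6, TRIM5 with TRIM22, RSAD2 with CMPK2, SP100 with SP110, and PARP14 with DTX3L and PARP9. Neighbours did not always carry the same values. MX1 and MX2 were both called in RhDBCb, while HERC5 and HERC6 had differences between the animals of -1.56 and -0.20, and SP100 and SP110 had memory steps of 0.40 and -0.50 in CD8 cells. In the same annotation the spans of XAF1, EPSTI1, RTP4, OAS2 and OAS3 also overlap those of genes outside the group. As for ADAR, overlap of exons was not examined, and their counts may be uncertain.

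USP18, the protease that removes ISG15 and restrains the interferon receptor, was at 14.6 to 26.5 CPM in RhDBCb before treatment, 17 to 32.7 after, 9.33 to 20.2 in RhM22 before and 8.80 to 19.2 after. It was lower in RhM22 than in RhDBCb after treatment, with a log2 difference of -0.87 (SE 0.21, adjusted p = 0.0316, held in 9 of 15 fits), and higher in CD8 memory than in CD8 naive cells by 0.90 (SE 0.22, adjusted p = 0.013).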

How the data were processed

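RNA was sequenced in 15 libraries of 4 T cell subsets from 2 macaques. The authors deposited expected counts per gene, estimated from aligned reads and not scaled, and FPKM values, scaled by gene length and library. The submitters' processing notes list RSEM 1.3.3, STAR 2.7.6a and cutadapt 1.18, and as builds rheMac10 and Mmul_10. SMART-Seq v4, per the labels' protocols, was used for the libraries, and it does not mark strand.

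Rounding the deposited expected counts to integers shifted no library total by more than 26.1 counts. Between 3.40% and 8.29% of a library's counts fell on entries with no gene symbol. Low genes were removed by filterByExpr in edgeR, given the subset-by-time groups (minimum count 10, 14814 genes left), and counts were scaled with TMM factors, from which CPM was computed. Each contrast was tested by the quasi-likelihood F test of edgeR, with Benjamini-Hochberg adjustment over all genes and calls at an adjusted p under 0.05. The SE is the absolute log2 fold change divided by the square root of F. All libraries shared 1 estimate of the spread. The change over all subsets came from a model of subset, animal and time. Changes within an animal, animal differences and subset contrasts came from a model of draw (1 animal at 1 time) and subset. Single-subset changes came from 8 subset-by-time groups plus animal. The scripts, tested on simulated data, used DESeq2 1.42.0, limma 3.58.1 and edgeR 4.0.16 under R 4.3.3.

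The labels name the animal of each library, which pairs libraries across groups. Deviations from the group means of the same animal had correlations of 0.195 to 0.501 over 21 pairs of 7 groups. Depth gives counting error only, because reads from 1 molecule copied by PCR were counted separately.

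The 40 genes, the pathway and marker lists and the tests were chosen with earlier results of these data known. Values per library are given for genes called in a treatment comparison within or between animals, at most 12, and for at most 5 genes per direction and subset contrast by fold change. Other genes are given by count and range or where the text compares them. The comparison of memory steps, the fits without the first RhDBCb draw, and those within and between animals without a CD8 subset, were chosen after seeing the data. Alternatives were RLE factors, no low-count filter, DESeq2, limma-voom, limma on log2(FPKM + 0.1), no pairing term, single animals, and leaving out each library. Overlapping and neighbouring genes came from the order and spans of genes in RefSeq assembly T2T-MMU8v2.0, which matched 41 of 41 genes by name. A pathway gene is not reported here.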

Additional observations from a re-analysis of the deposited data

Results flagged for a closer look

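The 8 genes below changed differently in the animals, by the test of the change in RhM22 minus that in RhDBCb in edgeR. The log2 differences were -2.89 for MX1, -2.28 for IRF7, -1.67 for TMEM140, -1.65 for PLSCR1, -1.56 for HERC5, -1.49 for EPSTI1, -1.35 for EIF2AK2 and -0.81 for SP100. In MX1, IRF7, PLSCR1 and EIF2AK2 the 4 RhDBCb libraries before treatment lay below the 11 others, and in TMEM140, PLSCR1 and EIF2AK2 the 4 RhM22 libraries before treatment lay above the 11 others. For IRF7 and EIF2AK2 the margins are small: the nearest libraries both round to 9.93 CPM for IRF7, and for EIF2AK2, at the upper end, to 49.5 CPM.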

How the results depend on the processing

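No called result changed its sign under the alternatives run. The number of the 40 genes called over all subsets, 0, was 1 (MX1) when the animals' changes were averaged and 1 (TMEM140) without the before libraries of RhDBCb. For the difference between the animals, 8 became 15 with DESeq2 and 4 without CD8 naive libraries. For the change in RhDBCb, 7 became 13 with DESeq2 (12 up, 1 down) and 0 on that animal's libraries alone, and EPSTI1 had an adjusted p of 0.0511 with RLE factors. For the change in RhM22, 1 became 6 with DESeq2, 0 with limma on FPKM and 5 on that animal's libraries alone. For the animals after treatment, 1 became 3 with DESeq2, 2 with limma-voom and 0 with limma on FPKM. With no replicate block, the draw left out, memory steps gave 1 in CD4 and 6 in CD8 cells (10 and 11 with the draw), and the lineage contrasts gave 0 in naive and 0 in memory cells (4 and 3 with the draw). The CD8 to CD4 naive contrast also gave 0 with limma on FPKM and 2 without the before libraries of RhDBCb, the CD8 to CD4 memory contrast 5 with DESeq2, and the difference of memory steps 1 with DESeq2. The cause was not tested.

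With 1 library left out at a time, counts ranged from 3 to 10 for the difference between the animals, 2 to 10 for RhDBCb, 0 to 2 for RhM22, 22 to 30 for the animals before treatment and 0 to 3 after. They ranged from 5 to 11 for the CD4 memory step, 5 to 14 for the CD8 memory step, 0 to 5 between naive and 1 to 4 between memory cells, and were 0 to 0 elsewhere. The change in RhM22 called 0 genes without any 1 of 12 libraries and 2 without the RhDBCb CD8 naive library. After treatment the animals differed in 0 genes without any 1 CD4 library drawn after treatment, in 2 without the RhDBCb CD8 memory library before and in 3 without that after. Between naive cells the count was 0 without the RhM22 CD8 naive library after treatment, 1 without the RhDBCb CD8 naive library, and 2 without any 1 of 5 CD4 libraries. Between memory cells it was 1 without the RhM22 CD4 memory library of either time or its CD8 memory library after treatment.

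With limma on log2(FPKM + 0.1) the before difference of the animals was 1.40 for MX2 and 0.65 for DDX60. That scale shrinks the changes of genes with a low FPKM, which can come from a long gene length as well as from few reads. The mean levels of MX2 and DDX60 were 18.3 and 19.4 CPM. Low counts limit IFI44L, IFI44 and IFI27.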
